A study of Homo sapiens with 6 samples.

Results

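The genes described here encode the enzymes that make purine and pyrimidine nucleotides from small precursors or recover them from free bases and nucleosides. The set was a list of 36 gene symbols, taken whatever their values, out of 27852 symbols in the table. All 36 were in the table and passed the filter on low counts, so none was lost to it. The cells were HSC3, HSC4 and SAS, human oral squamous carcinoma lines kept as established cultures, and each gave 1 library of poly(A) RNA per medium, 6 in all. One group of 3 libraries was grown in DMEM, a standard culture medium, and the other in HPLM, whose composition follows human plasma. Both media held 10% heat-inactivated fetal bovine serum and an antibiotic and antimycotic mix. No genotype, drug or time point separates the groups. The labels do not say when or in which batch a culture was harvested, and the serum itself brings some nucleosides and bases to both media.

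Purine synthesis builds inosine monophosphate (IMP) on phosphoribosyl pyrophosphate (PRPP) and then branches to AMP and GMP, while pyrimidine synthesis builds orotate first and joins it to PRPP to give UMP. Salvage enzymes such as HPRT1 and APRT join a free base to PRPP in a single step, and kinases such as TK1, DCK and the uridine-cytidine kinases phosphorylate nucleosides. HPLM contains hypoxanthine, the purine base that HPRT1 uses, and uric acid, which is known to inhibit the pyrimidine enzyme UMPS, and DMEM contains neither. The comparison between media sets the mRNA of these enzymes in cells given both compounds beside that in cells given neither by the medium. The media differ in other components too, and their effects cannot be told apart from those of these compounds.

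Library totals lay between 17715962 and 20171750 estimated counts, and the 36 genes together made up 0.488% to 0.578% of a library. Levels are given as CPM, the count scaled to a common library size with TMM factors. The deposited counts had been corrected for transcript length, so CPM can be compared between genes. Of 8 squamous epithelial markers all were expressed, with a summed level of 1860 to 6260 CPM. The 5 fibroblast markers summed to 1.78 to 5.97 CPM, and COL1A1, at 0.862 to 5.60 CPM, made up most of it. Of 5 leukocyte markers CD68, which epithelial lines can also express, had 40.8 to 80.7 CPM, PTPRC had 1.48 to 2.30 CPM and the B-cell marker MS4A1 was at 0 in every library. The 4 endothelial markers summed to 0.308 to 2.49 CPM, the highest in SAS in HPLM, where CDH5 had 2.17 CPM, and KDR was at 0 in every library.

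PPAT and PAICS share a start region. PPAT, which encodes the amidotransferase of the first committed step of purine synthesis, and PAICS, which encodes a bifunctional enzyme of later steps, lie head to head on chromosome 4. Their first annotated bases are 126 bases apart (56435615 for PPAT on the minus strand and 56435741 for PAICS on the plus strand, GENCODE 29, GRCh38). The 125 bases between them, chr4:56435616-56435740 (RefSeq, GRCh38.p14), are shown because those first bases flank it. The most abundant PAICS transcript, PAICS-207, starts further inside the gene, at 56436152. They read, 5′ to 3′ on the strand of PPAT and with GC boxes (GGGCGG or its complement CCGCCC) in capitals:
PPAT_PAICS: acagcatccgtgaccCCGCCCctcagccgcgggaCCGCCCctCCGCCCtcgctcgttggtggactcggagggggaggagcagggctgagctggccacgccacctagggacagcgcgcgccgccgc
This stretch held 3 GC boxes and was 76.0% G or C. The genes differed in level, with PAICS at 6.40 to 10.2 times the CPM of PPAT over the 6 libraries.

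RefSeq promoter windows, from 250 bases before to 50 after the start, were matched for 33 of the 36 genes. ADSL, IMPDH2 and RRM2B were not matched. The start of the most abundant transcript fell in the window for 25 genes, and for PAICS it did not. The letters CACGTG, the E-box that MYC and related factors can bind, were searched on both strands. So were the CAAT box (CCAAT), the GC box (GGGCGG) and the TATA box (TATAAA). The E-box was in 7 of 33 windows (21.2%), against 7.4% of the windows of 27305 symbols. The GC box was in 24 of 33 (72.7%, against 44.6%), the CAAT box in 11 (33.3%, against 35.7%) and the TATA box in 1 (3.0%, against 12.0%). The PAICS window, chr4:56410257-56410556, lay inside the PPAT gene and not in the stretch shown above, and held none of these motifs. These shares are descriptions without a test, and the 27305 symbols were not limited to those expressed here. The 7 genes with an E-box are shown by the motif, in capitals, with 10 bases on each side, 5′ to 3′ on the strand of the gene (GRCh38.p14), and its position relative to the start. CACGTG reads the same on both strands, and a match can share an end base with a GC box:
ATIC, position −46, chr2:215312003-215312028: gccggcgggcCACGTGataagcccgg
ATIC, position 29, chr2:215312078-215312103: cctacctgcgCACGTGgtgccgccgc
DCK, position −116, chr4:70993523-70993548: ccccggccttCACGTGacctggcgtg
DHODH, position −159, chr16:72008575-72008600: cgctactgcgCACGTGcacccaacca
MTHFD1, position −15, chr14:64388328-64388353: agtccctaagCACGTGggttgggttg
NME1, position 34, chr17:51153583-51153608: tgctgcgaacCACGTGggtcccgggc
PPAT, position −182, chr4:56435782-56435807: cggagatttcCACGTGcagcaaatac
UCKL1, position −233, chr20:63956634-63956659: gccctccaggCACGTGgcggaggctg
The PPAT motif lies past the first annotated base of PAICS, inside that gene. The motifs of DCK and MTHFD1, upstream of the RefSeq start, lie downstream of the start of their most abundant transcript (70993439 and 64388240). Between media the 7 genes did not share a direction: NME1 and DHODH were higher in HPLM in all 3 lines, ATIC and UCKL1 lower in all 3, and PPAT, DCK and MTHFD1 differed in direction between lines.

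Across the 36 genes no difference between HPLM and DMEM passed the test. The edgeR quasi-likelihood fit, with the line as a block and adjustment over all 13236 tested symbols, called 0 of 36, as did DESeq2, limma-voom and limma-trend, and it called 1 symbol in all (0.00756%). At an unadjusted p under 0.05 edgeR counted 3 of 36 (8.33%), against 10.1% of all symbols. The 3 were PRPS1, UPP1 and NME1, each higher in HPLM. Without the HSC3 libraries that count was 1 (RRM2B), and without the line as a block it was 0. The fitted log2 fold changes of the 36 ran from −0.55 to 0.38, with a median of 0.05 against 0.00 over all symbols, and 22 were above 0. In all 3 lines 8 genes were higher in HPLM (22.2%, against 16.9% of all symbols) and 4 were lower (11.1%, against 17.0%). Those higher were PRPS1, PAICS, ADSL, DHODH, TK1, UPP1, NME1 and NME2, and those lower were ATIC, ADSS1, UCK1 and UCKL1. The 3 lines stand in for replicates here, so a p-value sets the response against its spread over lines, and a difference within 1 line has no replicate check. Past 1.5-fold in either direction lay 3 of the 36 in HSC3 (PFAS, ADSS1 and RRM2B, against 16.9% of all symbols), 0 in HSC4 (against 14.8%) and 1 in SAS (RRM2B, against 16.2%).

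**Figure D1:**
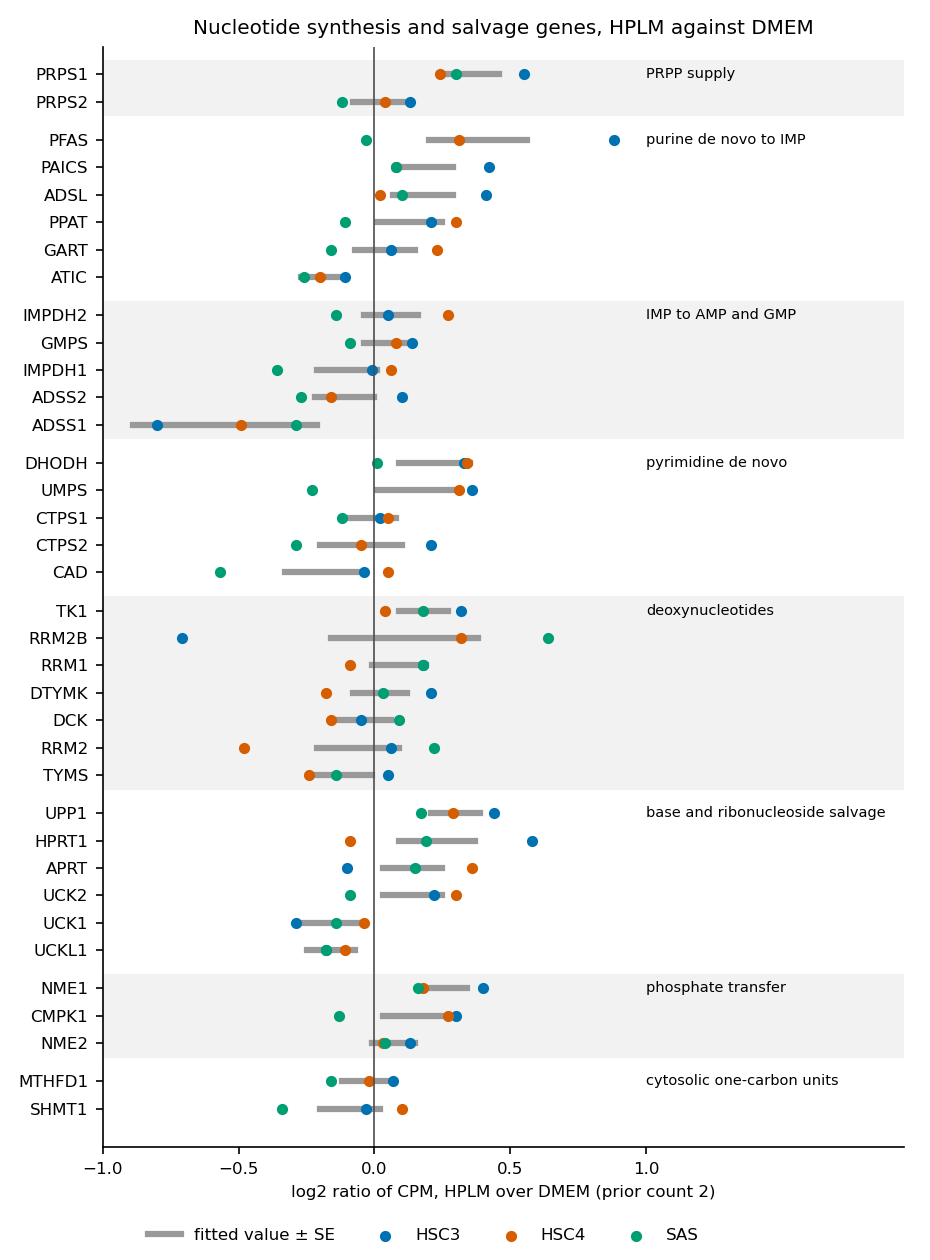
Each row is a gene and each point the log2 ratio of its CPM in HPLM to that in DMEM in 1 line, with genes grouped by role; the grey bar is the fitted log2 fold change ± its SE over the 3 lines. Most points lie within 0.5 of 0, PRPS1, UPP1 and NME1 lie to the right in all 3 lines, and RRM2B runs from −0.71 in HSC3 to 0.64 in SAS.

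PRPP synthetases supply the ribose phosphate that both pathways and base salvage consume. PRPS1, the widely expressed isoenzyme on the X chromosome (107628424 to 107651026), had 69.1 and 101 CPM in HSC3 (DMEM, then HPLM), 70.4 and 83.0 CPM in HSC4, and 58.0 and 71.4 CPM in SAS. Each line was higher in HPLM, by 1.46-fold, 1.18-fold and 1.23-fold. The lowest HPLM value (71.4 CPM in SAS) lay just above the highest DMEM value (70.4 CPM in HSC4). How many of all symbols separate in this way was not counted. The fitted log2 fold change was 0.36 ± 0.10 (SE, 3 lines; edgeR adjusted p = 0.390), the smallest p among the 36. PRPS2, the second isoenzyme, had a log2 fold change of 0.02 ± 0.10 and levels of 36.5 to 82.2 CPM. The ratio of PRPS1 to PRPS2 was higher in HPLM in all 3 lines, going from 1.89 to 2.53 in HSC3, from 0.878 to 1.01 in HSC4 and from 1.19 to 1.59 in SAS.

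Of the 6 genes that carry PRPP to IMP, 5 had a fitted value above 0, with a median of 0.15, and 0 were called. PPAT had 19.2 and 22.2 CPM in HSC3 (DMEM, then HPLM), 18.0 and 22.2 CPM in HSC4, and 31.8 and 29.5 CPM in SAS. It was higher in HPLM in HSC3 and HSC4 and lower in SAS, and the groups overlapped (log2 fold change 0.13 ± 0.12, edgeR adjusted p = 0.758). Its neighbour PAICS had 169 and 226 CPM in HSC3, 135 and 142 CPM in HSC4, and 251 and 266 CPM in SAS. PAICS was higher in HPLM in each line, most in HSC3 (1.34-fold), with overlapping groups (0.19 ± 0.10, edgeR adjusted p = 0.579). The ratio of PAICS to PPAT was higher in HPLM in HSC3 (8.81 to 10.2) and SAS (7.91 to 9.03) and lower in HSC4 (7.47 to 6.40). PFAS, the amidotransferase that adds a nitrogen to the growing ring, had 26.0 and 47.9 CPM in HSC3, 22.3 and 27.6 CPM in HSC4, and 43.1 and 42.3 CPM in SAS. Its fitted value was the highest of the 36, 0.38 ± 0.18 (edgeR adjusted p = 0.544), with the largest step in HSC3, at 1.84-fold, and without HSC3 it was 0.14. ADSL, which acts both in this chain and on the way to AMP, was 1.33-fold higher in HPLM in HSC3 and 1.01-fold and 1.07-fold higher in HSC4 and SAS.

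ATIC, which encodes the bifunctional enzyme of the last steps to IMP, went the other way. It had 195 and 181 CPM in HSC3 (DMEM, then HPLM), 276 and 241 CPM in HSC4, and 220 and 184 CPM in SAS. Each line was lower in HPLM, and the groups overlapped (−0.19 ± 0.08, edgeR adjusted p = 0.530). Only 40.6% of the ATIC level came from transcripts annotated as protein-coding, and the most abundant one in the table, ATIC-206, is a processed transcript of 442 bases. With protein-coding transcripts alone the fitted value of ATIC was −0.12 ± 0.10, and with transcripts of at least 1000 bases it was −0.09 ± 0.10. The main protein-coding transcript, ATIC-201, was lower in HPLM in HSC4 and SAS and went from 58.7 to 61.0 CPM in HSC3. GART, a trifunctional enzyme of the same chain, ranged from 62.3 to 112 CPM, with a log2 fold change of 0.04 ± 0.11. In every library GART-203 and a transcript outside GENCODE 29 held the same value.

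From IMP the branch to AMP runs through ADSS1 or ADSS2 and the branch to GMP through IMPDH1 or IMPDH2 and then GMPS. None of the 5 was called, and their median log2 fold change was −0.10. IMPDH2, the isoenzyme of proliferating cells and the rate-limiting step to GMP, had 237 and 246 CPM in HSC3, 270 and 325 CPM in HSC4, and 399 and 362 CPM in SAS. It was higher in HPLM in HSC3 and HSC4, lower in SAS, and the groups overlapped (0.06 ± 0.10, edgeR adjusted p = 0.889). GMPS, which aminates XMP to GMP, had 0.05 ± 0.09 at 135 to 196 CPM. IMPDH1 went from 146 to 113 CPM in SAS and differed by at most 1.04-fold in the other lines. All 5 genes of this branch were lower in HPLM in SAS, where the median log2 ratio was −0.27, while 3 of 5 were higher in HSC3 and 3 of 5 in HSC4. ADSS1, the isoenzyme best known from muscle, was the least expressed of the 36, at 0.769 to 2.42 CPM, and ADSS2 had 38.1 to 53.1 CPM. ADSS1 was lower in HPLM in all 3 lines, with a wide estimate (−0.55 ± 0.34, edgeR adjusted p = 0.632, and −0.95 ± 0.48 with protein-coding transcripts alone).

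In pyrimidine synthesis CAD carries the first 3 reactions, DHODH oxidises dihydroorotate at the inner mitochondrial membrane, UMPS makes UMP and the CTP synthetases CTPS1 and CTPS2 amidate UTP. None of the 5 was called, and the median log2 fold change was −0.01. UMPS, the enzyme that uric acid inhibits, had 34.0 and 43.6 CPM in HSC3 (DMEM, then HPLM), 36.2 and 45.1 CPM in HSC4, and 63.3 and 53.9 CPM in SAS. It was 1.28-fold and 1.24-fold higher in HPLM in HSC3 and HSC4 and 0.853-fold the DMEM level in SAS. The fitted value of UMPS was 0.15 ± 0.14 (95% interval −0.20 to 0.49, edgeR adjusted p = 0.772), and with protein-coding transcripts alone it was −0.06 ± 0.11. The protein-coding transcript UMPS-201 went against the summed level in each line. It had 21.6 and 19.6 CPM in HSC3, 28.9 and 24.0 CPM in HSC4, and 35.2 and 37.1 CPM in SAS. CAD had 32.5 and 31.7 CPM in HSC3, 56.7 and 58.6 CPM in HSC4, and 62.1 and 41.9 CPM in SAS. Its groups overlapped, and the difference lay in SAS alone (−0.19 ± 0.14, edgeR adjusted p = 0.698). DHODH had 7.38 and 9.34 CPM in HSC3, 12.9 and 16.3 CPM in HSC4, and 20.6 and 20.7 CPM in SAS. In HPLM it was 1.26-fold higher for both HSC3 and HSC4 and 1.01-fold for SAS (0.22 ± 0.13, edgeR adjusted p = 0.615). With transcripts of at least 1000 bases the fitted value of DHODH was 0.07 ± 0.12. In HSC4 the transcript DHODH-208, of 607 bases, went from 2.06 to 7.05 CPM and the full-length DHODH-201 from 9.09 to 8.46 CPM. CTPS2 was low, at 7.22 to 13.5 CPM, with a log2 fold change of −0.05 ± 0.15. In SAS 4 of the 5 were lower in HPLM, and in HSC3 and in HSC4 4 of the 5 were higher.

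For CTPS1 the choice of transcripts moved the fitted value more than for any other of the 36. Summed over all transcripts it had 87.0 to 112 CPM and a log2 fold change of −0.01 ± 0.09. Only 31.6% of that level came from protein-coding transcripts, the lowest share of the 36, and the transcript with the highest level, CTPS1-204, is annotated for nonsense-mediated decay. The main protein-coding transcript, CTPS1-201, took 22.5% of the gene in HSC3 in DMEM and 39.8% there in HPLM, 29.8% and 33.5% in HSC4, and 17.5% and 26.6% in SAS. Its share was higher in HPLM in each line. With protein-coding transcripts alone the fitted value of CTPS1 was 0.49 ± 0.14 (edgeR adjusted p = 0.362). That fit was added after the data were seen and put 7 of the 36 at an unadjusted p under 0.05 (19.4%, against 11.0% of 11890 symbols). The 7 were CTPS1, DHODH, NME1, PFAS, PRPS1 and UPP1, all higher in HPLM, and UCK1, lower, and 0 were called.

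**Figure D2:**
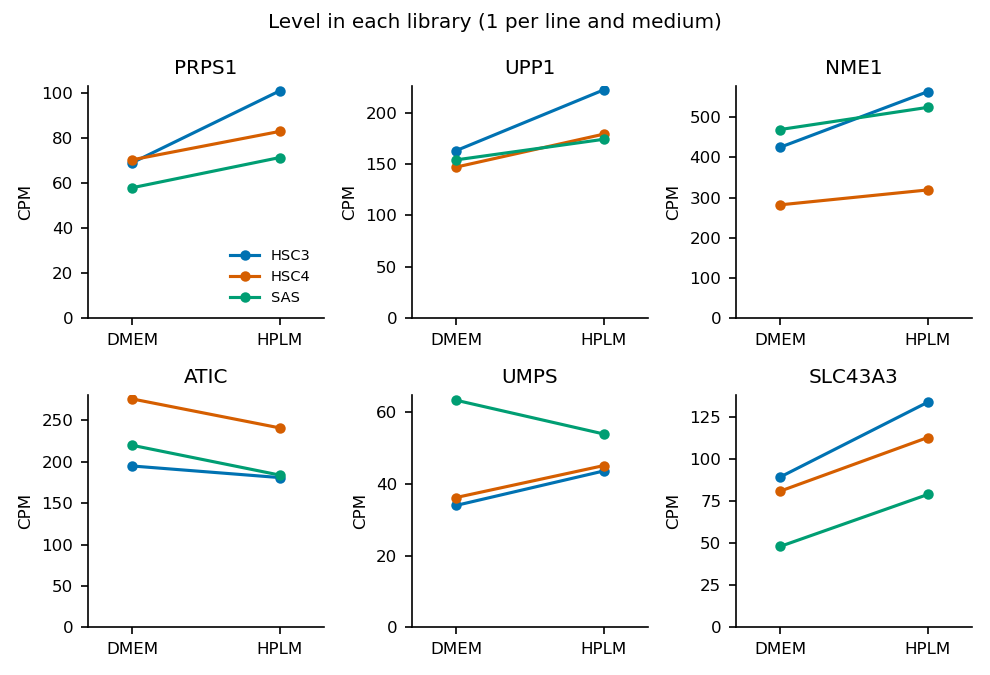
Each panel gives the CPM of 1 gene in the 6 libraries, with DMEM and HPLM joined for each line and the vertical axis starting at 0. PRPS1, UPP1, NME1 and SLC43A3 go up in all 3 lines and ATIC goes down in all 3. UMPS, summed over all its transcripts, goes up in HSC3 and HSC4 and down in SAS.

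Deoxynucleotides come from ribonucleotide reductase, made of the large subunit RRM1 and a small subunit, RRM2 or RRM2B, and from thymidylate synthase and the deoxynucleoside kinases. None of these 7 genes was called. TK1, the S-phase thymidine kinase, had 215 and 269 CPM in HSC3 (DMEM, then HPLM), 145 and 150 CPM in HSC4, and 174 and 197 CPM in SAS. It was higher in HPLM in each line, with overlapping groups (0.18 ± 0.09, edgeR adjusted p = 0.567). TYMS, which makes thymidylate, had 145 and 150 CPM in HSC3, 97.8 and 82.6 CPM in HSC4, and 102 and 92.1 CPM in SAS. It was higher in HPLM in HSC3 and lower in the other lines (−0.11 ± 0.10, edgeR adjusted p = 0.737). RRM2, the S-phase small subunit, had 296 and 309 CPM in HSC3, 456 and 328 CPM in HSC4, and 312 and 364 CPM in SAS. The HSC4 library in HPLM held 0.719 times the DMEM level, the other lines were higher in HPLM, and the groups overlapped (−0.06 ± 0.15, edgeR adjusted p = 0.919). Symbol RRM2 joined transcripts of 2 gene identifiers, and the transcript of the other gene, C2orf48-201, held 0.1% to 0.5% of the level in each library. DTYMK, the thymidylate kinase, had 70.6 to 131 CPM and a log2 fold change of 0.02 ± 0.10. In HSC4 5 of the 7 genes were lower in HPLM and in SAS 6 of 7 were higher.

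RRM2B, the small subunit induced by p53 and used outside S phase, had the widest split of log2 ratios between lines among the 36. Its level was 10.2 and 6.16 CPM in HSC3 (DMEM, then HPLM), 8.27 and 10.4 CPM in HSC4, and 16.4 and 25.6 CPM in SAS. Its log2 ratios were −0.71 for HSC3, 0.32 for HSC4 and 0.64 for SAS, and the fitted value was 0.11 ± 0.27 (edgeR adjusted p = 0.922). The full-length transcript RRM2B-201, of 4931 bases, had 4.74 and 4.60 CPM in HSC3, 7.36 and 7.57 CPM in HSC4, and 13.0 and 12.0 CPM in SAS. The transcript RRM2B-206, of 420 bases, had 3.79 and 1.08 CPM in HSC3 and 0.423 and 10.0 CPM in SAS, and these steps made up most of the difference in the gene. With transcripts of at least 1000 bases the fitted value of RRM2B was 0.04 ± 0.13. PFAS had a short transcript of this kind in HSC3. There the full-length transcript PFAS-201, of 5371 bases, went from 20.3 to 26.4 CPM. The processed transcript PFAS-211, of 598 bases, went from 0 to 9.99 CPM in HSC3. PFAS-211 was present in both media in HSC4 (3.93 and 3.33 CPM) and in SAS (6.92 and 7.28 CPM). With transcripts of at least 1000 bases PFAS had 0.30 ± 0.11 (edgeR adjusted p = 0.376).

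**Figure D3:**
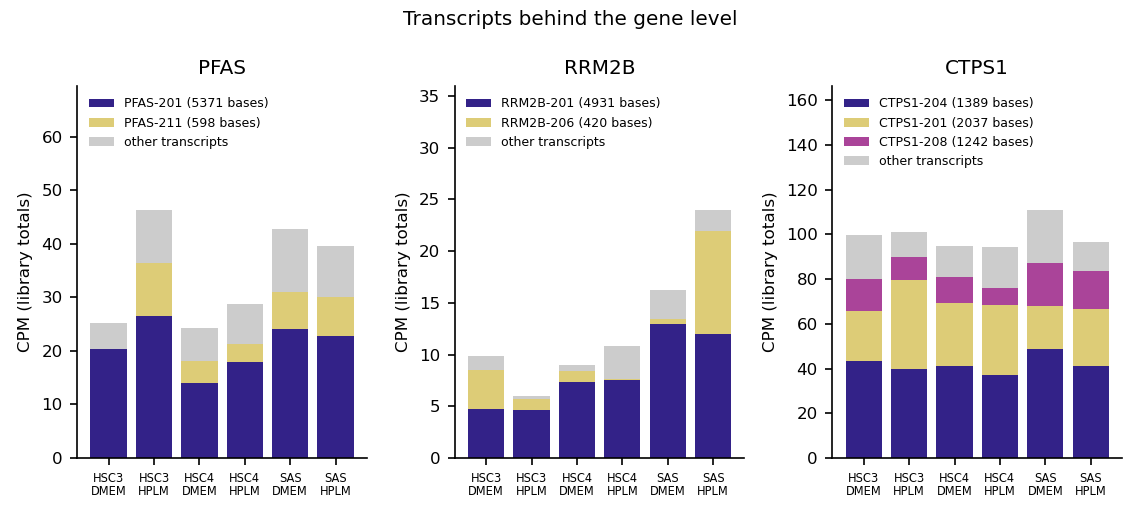
Stacked bars give the level of PFAS, RRM2B and CTPS1 in each of the 6 libraries in CPM of the library total, split into the most abundant transcripts with their lengths and the rest. RRM2B-206 fills 10.0 CPM of the SAS library in HPLM against 0.423 in DMEM. PFAS-211 is absent from HSC3 in DMEM and present in every other library, and CTPS1-201 takes a larger share in HPLM in each line.

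Salvage of bases and ribonucleosides held the second of the 3 genes at the unadjusted threshold. UPP1, the uridine phosphorylase that frees uracil and ribose 1-phosphate, had 163 and 222 CPM in HSC3 (DMEM, then HPLM), 147 and 179 CPM in HSC4, and 154 and 174 CPM in SAS. It was higher in HPLM in each line, by 1.36-fold, 1.22-fold and 1.13-fold (0.30 ± 0.09, edgeR adjusted p = 0.407). The groups did not overlap, and the share of all symbols without overlap was not counted. HPRT1, which makes IMP from hypoxanthine and GMP from guanine, had 134 and 199 CPM in HSC3, 114 and 108 CPM in HSC4, and 140 and 160 CPM in SAS. It was 1.49-fold and 1.14-fold higher in HPLM in HSC3 and SAS and 0.943 times the DMEM level in HSC4, and the groups overlapped (0.23 ± 0.14, 95% interval −0.11 to 0.56, edgeR adjusted p = 0.622). APRT, the adenine counterpart, was 1.28-fold higher in HSC4, 1.11-fold higher in SAS and 0.934 times the DMEM level in HSC3.

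The uridine-cytidine kinases differed among themselves. UCKL1 had 23.6 and 20.8 CPM in HSC3, 36.7 and 33.9 CPM in HSC4, and 36.1 and 31.8 CPM in SAS. It was lower in HPLM in each line, by a small step, with overlapping groups (−0.16 ± 0.09, edgeR adjusted p = 0.615). UCK1 was lower in all 3 lines too, at 23.2 to 29.7 CPM (−0.16 ± 0.10, and −0.33 ± 0.13 with protein-coding transcripts alone). UCK2, the isoenzyme of higher activity, was 1.16-fold and 1.23-fold higher in HPLM in HSC3 and HSC4 and 0.941 times the DMEM level in SAS, where UCK1 was at 0.906 times. The ratio of UCK2 to UCK1 went from 3.98 to 5.67 in HSC3, from 2.60 to 3.31 in HSC4 and from 4.09 to 4.26 in SAS. None of the 3 kinases was called.

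Nucleoside diphosphate kinases make triphosphates from diphosphates. NME1 had 425 and 563 CPM in HSC3 (DMEM, then HPLM), 282 and 319 CPM in HSC4, and 469 and 524 CPM in SAS. It was higher in HPLM in each line while the groups overlapped, HSC4 lying below the others in both media (0.25 ± 0.09, edgeR adjusted p = 0.458). NME2, 3007 bases downstream on chromosome 17, was the most expressed of the 36 at 1020 to 1640 CPM, 26.2% of their sum. It had a log2 fold change of 0.07 ± 0.08, and the ratio of NME2 to NME1 was lower in HPLM in all 3 lines. These neighbours are similar in sequence and share a readthrough transcript, so how their reads were divided is uncertain. CMPK1, which phosphorylates UMP and CMP, had a log2 fold change of 0.15 ± 0.12. Of the cytosolic enzymes that supply one-carbon units, SHMT1 had −0.09 ± 0.11 and MTHFD1 −0.03 ± 0.09.

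By line, the 36 had a median log2 ratio of 0.13 for HSC3, 0.05 for HSC4 and −0.10 for SAS, and 26, 23 and 15 of the genes were higher in HPLM. The summed level, with TMM factors, went from 5110 to 5820 CPM in HSC3, from 4570 to 4670 in HSC4 and from 5830 to 5910 in SAS. As a share of the library total it went from 0.497% to 0.562% in HSC3. That share was lower in HPLM in HSC4 (0.498% to 0.488%) and in SAS (0.578% to 0.554%). The TMM-scaled sum over all tested symbols was also higher in HPLM in HSC4 (916000 to 956000) and SAS (1010000 to 1070000). Whether the lines differ in their response could not be tested with 1 library per line and medium.

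More of the genes were called between cell lines than between media. Between lines, in the same edgeR fit, 27 of the 36 were called in at least 1 pair (against 63.0% of all symbols) and 9 in none. HSC3 against HSC4 had 19 of 36 called (52.8%, against 37.4%), 11 higher in HSC3 (against 18.6%) and 8 lower (against 18.8%). HSC3 against SAS had 15 called (41.7%, against 39.4%), 5 higher in HSC3 (against 20.6%) and 10 lower (against 18.8%). HSC4 against SAS had 18 called (50%, against 41.3%), 3 higher in HSC4 (against 21.3%) and 15 lower (against 20.0%). SAS had the highest mean of the 3 lines for 18 of the genes and HSC4 the lowest for 18, shares that were not counted over all symbols. The median log2 fold change of the 36 was −0.30 in HSC4 against SAS, with 0.01 over all symbols. These counts rest on few libraries. For HSC3 against HSC4 the count was 6 without HSC4 in HPLM, 10 without HSC3 in HPLM and 12 without HSC4 in DMEM. For HSC3 against SAS it was 7 without HSC3 in HPLM, 7 without SAS in DMEM and 8 without HSC3 in DMEM. For HSC4 against SAS it was 7 without HSC4 in DMEM, 8 without SAS in DMEM and 10 without HSC4 in HPLM. A line here is 1 culture per medium, so its p-values measure the spread left by an additive fit and not that between cultures.

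The 6 genes with the widest range between lines spanned several roles. MTHFD1, the trifunctional folate enzyme that makes formyl units for the purine ring, had 71.2 and 74.7 CPM in HSC3 (DMEM, then HPLM), 154 and 152 CPM in HSC4, and 38.9 and 34.8 CPM in SAS. Both HSC4 libraries lay above all others and both SAS libraries below, and HSC4 held 4.14 times the level of SAS (log2 fold change 2.05 ± 0.12, edgeR adjusted p = 0.000428). Of the MTHFD1 level 87.5% came from transcripts under 1000 bases, and with longer ones alone the HSC4 to SAS value was 2.18.

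DCK, which phosphorylates deoxycytidine and activates nucleoside drugs such as cytarabine and gemcitabine, had 56.0 and 54.2 CPM in HSC3, 15.3 and 13.7 CPM in HSC4, and 22.1 and 23.5 CPM in SAS. HSC3 held 3.78 times the level of HSC4 (1.92 ± 0.13, edgeR adjusted p = 0.000659) and 2.41 times that of SAS (1.27 ± 0.12, adjusted p = 0.00133). RRM1 had 240 and 273 CPM in HSC3, 118 and 111 CPM in HSC4, and 107 and 121 CPM in SAS. It was likewise highest in HSC3, 2.23 times HSC4 (1.16 ± 0.12, edgeR adjusted p = 0.00179), while HSC4 and SAS did not differ beyond their spread (0.02 ± 0.12, adjusted p = 0.922). The ratio of RRM2 to RRM1 was 1.13 to 1.23 in HSC3 and 2.92 to 3.85 in the other lines.

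APRT and DHODH had the same order of lines, lowest in HSC3 and highest in SAS. APRT had 138 and 129 CPM in HSC3, 198 and 255 CPM in HSC4, and 334 and 370 CPM in SAS, so that SAS held 2.64 times the level of HSC3 (HSC3 against SAS −1.39 ± 0.14, edgeR adjusted p = 0.00137). DHODH was 2.47 times as high in SAS as in HSC3 (HSC3 against SAS −1.32 ± 0.16, adjusted p = 0.00248). Its call for HSC4 against SAS (−0.52 ± 0.16, adjusted p = 0.0429) ended with DESeq2 (adjusted p = 0.122), without a scaling factor (0.122) and without the low-count filter (0.0584). It ended too with transcripts of at least 1000 bases (0.131) and without any 1 of the 6 libraries (0.0563 to 0.269). RRM2B was 2.57 times as high in SAS as in HSC3 (−1.34 ± 0.33, edgeR adjusted p = 0.0221), a call that ended without either HPLM library of the pair (adjusted p = 0.0727 without HSC3 and 0.119 without SAS).

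**Figure D4:**
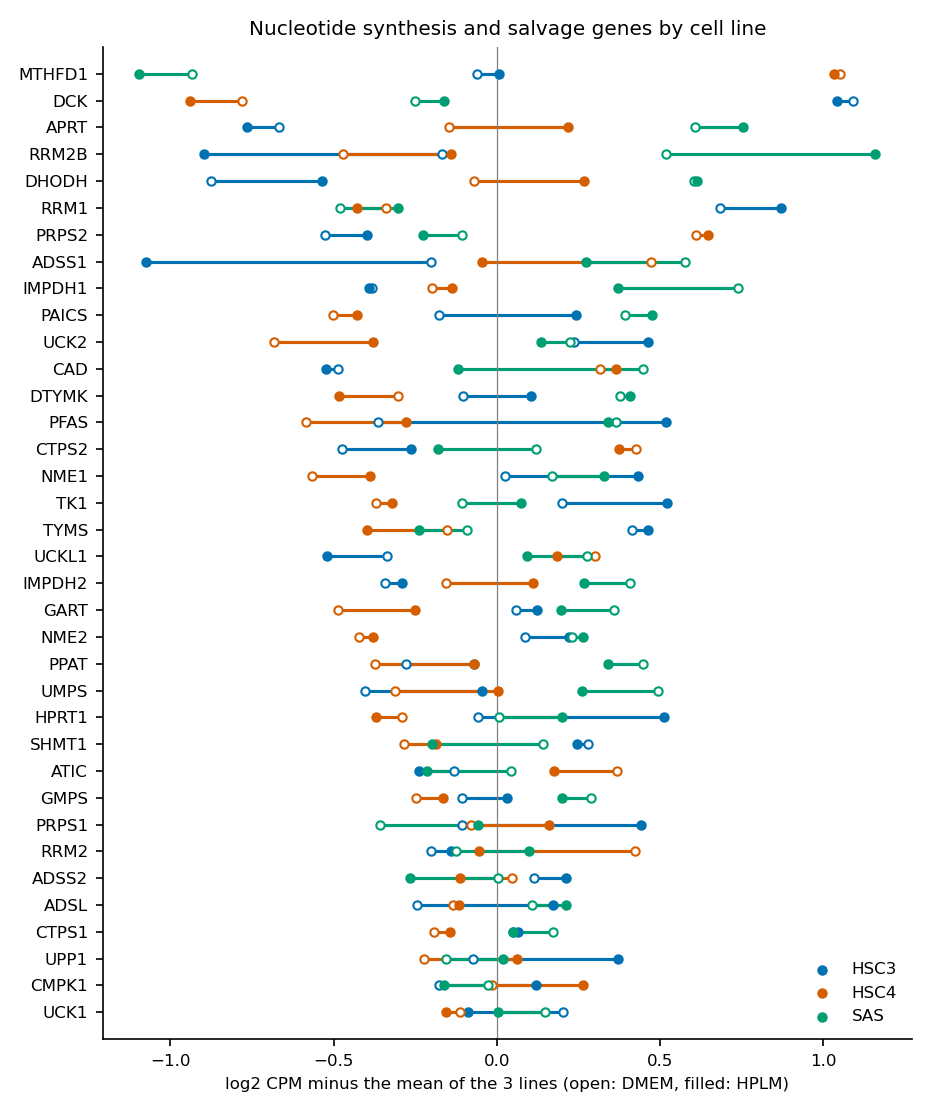
Each row is 1 of the 36 genes, ordered by the range between lines, with log2 CPM minus the mean of the 3 lines on the horizontal axis; open points are DMEM and filled points HPLM. For MTHFD1, DCK and APRT the lines stand apart in both media, whereas for UCK1, CMPK1 and UPP1 at the foot the lines overlap.

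The wider pathway was followed through 5 lists of 83 further genes, of which 72 were tested. EdgeR called 0 of them and DESeq2 called 1 (SLC43A3), against 0.960% of all symbols with DESeq2. At an unadjusted p under 0.05 edgeR counted 10 of 72, 8 higher and 2 lower in HPLM (13.9%, against the same 10.1%). The median was 0.05. Of 8 tested transport genes 1 was higher and 1 lower at that threshold. The higher one was SLC43A3, a transporter of purine bases such as hypoxanthine and adenine. It had 89.5 and 134 CPM in HSC3 (DMEM, then HPLM), 81.1 and 113 CPM in HSC4, and 48.2 and 79.1 CPM in SAS. Within each line HPLM was higher, from 1.39-fold in HSC4 to 1.64-fold in SAS, with the SAS libraries below the others (0.59 ± 0.09, edgeR adjusted p = 0.260, DESeq2 adjusted p = 0.000398, limma-voom adjusted p = 0.145). ABCG2, an exporter of urate, had 14.8 and 12.6 CPM in HSC3, 7.45 and 4.86 CPM in HSC4, and 3.66 and 2.55 CPM in SAS, lower in HPLM in each line (−0.45 ± 0.17, edgeR adjusted p = 0.464).

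Of 21 tested genes of nucleotide breakdown 4 were at the unadjusted threshold, all higher in HPLM. NT5C3A, a pyrimidine 5′-nucleotidase, had 23.3 and 35.4 CPM in HSC3, 27.9 and 34.8 CPM in HSC4, and 24.8 and 31.0 CPM in SAS (0.41 ± 0.11, edgeR adjusted p = 0.381). The other 3 were PNP, the purine nucleoside phosphorylase that releases hypoxanthine (0.23 ± 0.09), DCTPP1 (0.33 ± 0.12) and NUDT1 (0.26 ± 0.10). Of 17 other kinases and salvage genes 2 were at that threshold, NME4 (0.43 ± 0.13) and AK4 (0.28 ± 0.10), both higher. Of 19 genes of folate and mitochondrial one-carbon metabolism 1 was, SHMT2, the mitochondrial serine hydroxymethyltransferase, which was lower (−0.34 ± 0.14, edgeR adjusted p = 0.487). SHMT2 had 441 and 269 CPM in HSC3, 170 and 161 CPM in HSC4, and 273 and 232 CPM in SAS. Of 7 regulators 1 was, MITF (1.07 ± 0.40), which was 3.59-fold and 3.07-fold higher in HPLM for HSC3 and SAS and 0.967 times the DMEM level for HSC4. MYC was at 0.28 ± 0.17, with a log2 ratio of 0.78 in HSC4 and of 0.09 and −0.01 in HSC3 and SAS. The genes given here with a count were picked by that count.

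**Figure D5:**
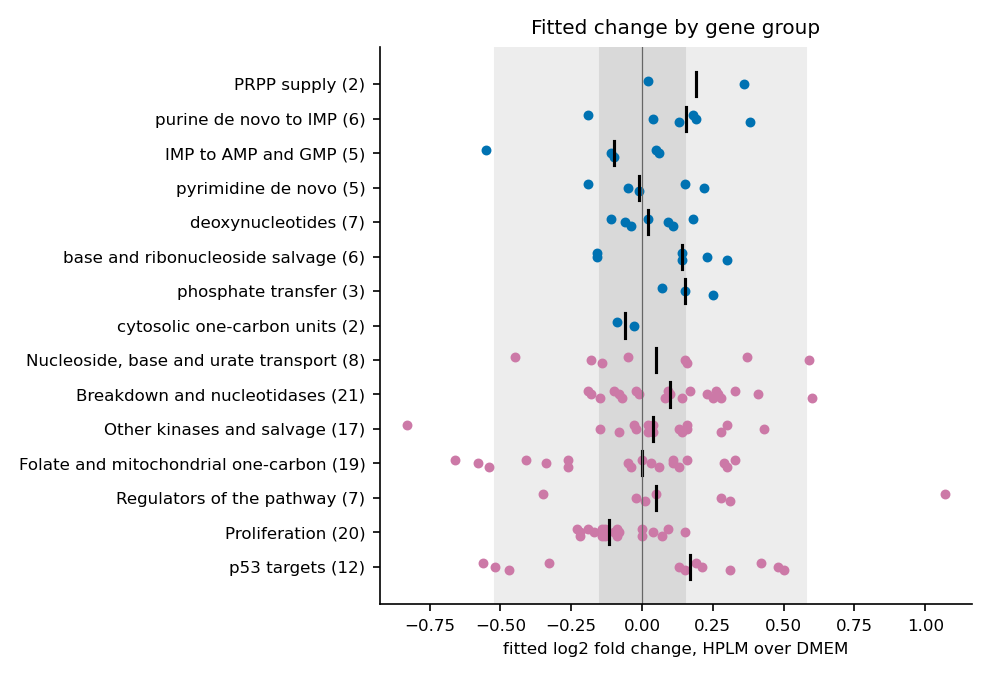
Each point is a gene at its fitted log2 fold change, HPLM over DMEM, with the median of each group as a black line, the 36 genes by role in blue and other lists in pink; the number of tested genes is in brackets. The dark band spans the middle of all 13236 symbols (−0.15 to 0.15) and the light band their 5th to 95th percentile (−0.52 to 0.58), and of the 36 all but ADSS1 lie inside the light band.

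Synthesis of deoxynucleotides follows the cell cycle, so 20 proliferation genes were set beside it. Their median log2 fold change was −0.11, with 15 below 0, 7 lower and 1 higher in HPLM in all 3 lines and 0 called, while TK1 lay above 0 and TYMS and RRM2 below. In HSC4, where RRM2 had a log2 ratio of −0.48, the 20 had a median of −0.12, from −0.51 for TOP2A to 0.34 for BIRC5. In SAS RRM2 had 0.22 while the 20 had a median of −0.15, and in HSC3 the values were 0.06 and −0.04. The median of 12 p53 target genes was 0.17, 8 of them above 0 and 0 called. They were split, with 3 higher and 4 lower in HPLM in all 3 lines. Their median log2 ratio was −0.27 in HSC3, 0.05 in HSC4 and 0.25 in SAS. CDKN1A had a log2 ratio of 1.00 in SAS, 0.15 in HSC4 and 0.30 in HSC3, beside 0.64, 0.32 and −0.71 for RRM2B, and DDB2, another p53 target, was lower in HPLM in all 3 lines (−0.56 ± 0.11, edgeR adjusted p = 0.362). The part of proliferation or p53 activity in the values of these genes was not tested. In bulk RNA a change in the share of cycling cells and a change of RNA per cell cannot be told apart.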

How the data were processed

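The authors deposited 1 table of estimated counts for transcripts. By its name it is scaled TPM, that is, abundance corrected for transcript length and scaled to the library size, so the values are not read numbers and no counting interval is given. The submitters' processing notes name FastQC, kallisto and the build hg38. Tool versions, annotation release and use of strand: not given in the sources used here, so overlapping genes may share reads. DMEM columns are named for the line alone, with an unexplained ending. No column was left unused (0).

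Repeated rows (1312 of 161149) were counted once, transcripts without a symbol (0.362% to 0.479% of a library) were dropped, and the rest were summed by symbol and rounded. GENCODE 29 gave transcript types, lengths and positions, and RefSeq (GRCh38.p14) the promoter windows. The software was edgeR 4.0.16, DESeq2 1.42.0 and limma 3.58.1 in R 4.3.3. The filterByExpr filter, grouped by medium (count minimum 10, total minimum 15), left 13236 symbols, with TMM scaling factors. The edgeR quasi-likelihood fit had line and medium as terms (residual degrees of freedom 2, prior 4), and Benjamini-Hochberg adjustment ran over all symbols with a threshold of 0.05. An SE is the size of the log2 fold change divided by the root of its F statistic. Ratios per line are differences of log2 CPM (prior count 2), and transcript levels are scaled to the library total. The same line gave both libraries of a pair, which is where the pairing comes from.

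Genes were named by rule: the 10 of smallest p between media, 10 of set interest whatever their values, the 6 of widest range between lines, paralog and neighbour pairs, and of the wider lists the 2 of smallest p in each direction. Others named with a count, and RRM2B and CTPS1 by transcript, were picked with their values in view. The 36 genes and all lists were chosen with earlier results of these data known. Alternatives changed the scaling, the filter, the test, repeated rows, the readthrough NME1-NME2, the block and the libraries used, and 2 on transcript choice were added after the data were seen. The fits were tested on simulated data whose changes were the same in every line and larger than those fitted for the 36 genes. How well smaller or line-specific changes are found was not tested.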

Additional observations from a re-analysis of the deposited data

Results flagged for a closer look

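RRM2B, the p53-induced small subunit of ribonucleotide reductase, moved in opposite directions in the lines. Its log2 ratio of HPLM to DMEM was −0.71 in HSC3, 0.32 in HSC4 and 0.64 in SAS, so that SAS exceeded HSC3 by 1.35. The difference was not tested, since each line has 1 library per medium. The short transcript RRM2B-206 went from 3.79 to 1.08 CPM in HSC3 and from 0.423 to 10.0 CPM in SAS, while RRM2B-201 stayed between 4.60 and 4.74 CPM in HSC3 and went from 13.0 to 12.0 CPM in SAS.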

How the results depend on the processing

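None of the genes tested was called between media under any alternative run (all 36 were tested, except with transcripts of at least 1000 bases, which left 34, without APRT and NME2), and the median over them moved by less than the SD between the lines' medians (0.116). The count of all symbols called was 1 and became 0 with upper-quartile scaling, without the low-count filter and with limma-trend, 9 with limma-voom and 127 with DESeq2. Without the line as replicate block it was 0, with 0 of the 36 at an unadjusted p under 0.05, and the block changed no other call. Leaving out 1 line gave 0 to 4 symbols called and 1 to 4 of the 36 at the unadjusted threshold (1, RRM2B, without HSC3). Protein-coding transcripts alone gave 7. Of the 36 fitted values 15 changed sign under some alternative that tested them and 21 under none. Without a scaling factor PRPS2 had −0.035, GART −0.005, GMPS −0.004 and DTYMK −0.026. With protein-coding transcripts UMPS had −0.057, CTPS1 0.487, DTYMK −0.052 and MTHFD1 0.072, and with transcripts of at least 1000 bases CTPS1 had 0.029 and DTYMK −0.008. Leaving out 1 line moved CAD between −0.314 and 0.005, CTPS1 between −0.056 and 0.035, CTPS2 between −0.172 and 0.070, DCK between −0.102 and 0.010, DTYMK between −0.072 and 0.115, GART between −0.058 and 0.146, GMPS between −0.004 and 0.111, IMPDH1 between −0.195 and 0.025, IMPDH2 between −0.052 and 0.158, MTHFD1 between −0.085 and 0.024, PRPS2 between −0.040 and 0.079, RRM2 between −0.210 and 0.134, RRM2B between −0.190 and 0.493 and SHMT1 between −0.195 and 0.029. Between lines, leaving out 1 library gave 6 to 18 called of the 36 for HSC3 against HSC4, 7 to 13 for HSC3 against SAS and 7 to 16 for HSC4 against SAS. RRM2B in HSC3 against HSC4 ran from −0.821 to 0.391 (without HSC3 in HPLM), and RRM1 in HSC4 against SAS from −0.096 (without HSC4 in DMEM; −0.047 without SAS in DMEM) to 0.153. Of the other values between lines 26 lost and 1 gained a call. With 3 lines a small change in all of them may not be detectable, and the cause of these changes was not tested.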

Other observations

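Genes of serine synthesis, which feeds the one-carbon units of purine and thymidylate synthesis, stood apart in HSC3. PHGDH, its first enzyme, had 195 CPM in DMEM and 45.9 CPM in HPLM in HSC3, 120 and 125 CPM in HSC4, and 138 and 132 CPM in SAS. PSAT1, the next enzyme, had 141 and 42.5 CPM in HSC3, 75.2 and 80.7 CPM in HSC4, and 106 and 132 CPM in SAS. PSPH, the last step, had 67.1 and 38.8 CPM in HSC3, and 24.9 to 33.5 CPM in the other libraries. The mitochondrial folate gene ALDH1L2 had 4.40 and 0.462 CPM in HSC3 and 3.39 to 5.46 CPM in the other libraries. ATF4, a regulator of these genes, had 364 and 265 CPM in HSC3, 200 and 215 CPM in HSC4, and 261 and 367 CPM in SAS. None was called by edgeR across the lines (adjusted p from 0.642 for PHGDH to 0.816 for ALDH1L2 among the 4 enzymes), and the difference between lines was not tested.

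ADA, which deaminates adenosine, had 12.3 and 24.6 CPM in HSC3, 12.8 and 25.2 CPM in HSC4, and 19.7 and 17.3 CPM in SAS (0.60 ± 0.25 on the log2 scale, edgeR adjusted p = 0.504).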
